A study of Arabidopsis thaliana with 10 samples.

Results

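The genes described here had their highest level in Arabidopsis thaliana leaves on day 8, read as the first day of cool bright growth, in both of the plant lines compared. They were chosen from the measured values. A probe set, the group of probes on an array that reads 1 transcript, was taken if it names only 1 gene, if its day 8 value lay above those of days 1, 2 and 12 by 1.5 log2 units or more (2.83-fold) in each line, and if day 2 differed from day 1 by less than 1 unit in each line. Of 13350 genes with such a probe set (13513 probe sets), 45 met these conditions, each through 1 probe set. The choice leaves out CHIL, UGT78D1, AT1G06000, HYH, COR15A, COR15B and LTI30 by name, but none of these 7 met all the numerical conditions. A further 24 probe sets with the same pattern are not in the probe table and are unnamed here.

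The study followed leaves of plants carrying 35S:PAP1, in which a constitutive viral promoter drives the MYB transcription factor PAP1, an activator of anthocyanin genes, beside plants with an empty vector, all of accession Columbia. Total RNA came from pooled frozen leaf tissue, and 10 arrays were made, 1 for each line on days 1, 2, 7, 8 and 12. The labels name the lines Pap and Hex, and Hex was taken to be the empty vector, the remaining line of the series. The regime on each sampling day follows the order of growth phases that the series gives. Day 1 was assigned to 22 °C with light of 440 µmol per square metre and second, days 2 and 7 to warm dim growth (30 °C in the light period, 150 of the same light unit), and days 8 and 12 to cool bright growth (15 °C and 440). How many transgenic lines or plants stood behind each pool is not given in the sources used here. Each line has 1 array a day, and sampling day, plant age, temperature and light cannot be told apart. The p-values below therefore measure how much the difference between the lines varied from day to day. That spread may be technical or a response that differs between the lines, and these cannot be told apart. In bulk leaf RNA, more cells of a type and more RNA per cell cannot be told apart either.

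When leaves move from warm dim to cool bright conditions they face light energy that cold-slowed metabolism cannot fully use, and they are known to accumulate phenolic sunscreens, to change sugar export and to rebuild their protein synthesis capacity. Sugars are attached to flavonols and other phenolics by UDP-glycosyltransferases. Ribosomes are assembled in the nucleolus, starting from a ribosomal RNA precursor made by RNA polymerase I, and mitochondria run their own RNA processing and protein assembly alongside. Roles given below are background knowledge and come from neither the arrays nor the probe table.

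The values are log2 expression levels with 1 decimal, normalised by the authors with RMA, and series of 5 values run in the order of days 1, 2, 7, 8 and 12. The array medians lay between 5.5 and 5.7. The leaf antenna genes LHCB4.1 and LHCB4.2 read 12.1 to 13.6 and 9.6 to 13.1, and LHCB4.2 had its lowest values, 9.6 and 9.7, on day 8. The root genes PYK10 and EXPA7 read 4.1 to 5.1 and 3.5 to 3.9, the seed coat gene BAN 3.3 to 3.7, and the guard cell regulator FAMA 5.5 to 6.6. The spiked poly-A controls had a median of 3.35 to 3.4 on the day 7 arrays and 4.45 to 5.35 on the other 8 arrays. The actin 5′ minus 3′ difference was -4.3 on the 35S:PAP1 day 2 array and -3.7 to -2.9 on the other 9. The lines correlated at 0.973 on day 7 and at 0.986 to 0.991 on the other days. Whether these array properties play a part in the results below was not tested. An RMA value carries no detection call, so 3.9, the highest value of EXPA7 and BAN, serves as a dim limit. In 15 of the 45 genes at least 1 value of days 1, 2 or 12 was at or below it, and in UGT78D3 and AT2G22590 all 6 were, so that their margins are lower bounds.

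The smaller margin of day 8 over days 1, 2 and 12 in either line ran from 1.5 to 3.1, with a median of 1.7. The margin had a median of 2.0 in the empty vector and 1.7 in 35S:PAP1, and it was the larger one in the empty vector for 32 genes and in 35S:PAP1 for 8. These values chose the genes and are given as a description. On the same contrast, day 8 against the mean of days 1, 2 and 12, limma called 12.1% of all 22746 probe sets higher and 13.8% lower (adjusted p under 0.05), and all 45 genes were among the higher ones by construction, as they were among the 36.2% with an unadjusted p under 0.05. Just inside the threshold, 9 genes had a smaller margin of 1.5, among them AT1G06720, AT1G30960 and AT2G25530. Just outside it, 6 other genes had a margin of 1.4, among them AT1G16850, AT1G51090 and AT1G79470.

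**Figure D1:**
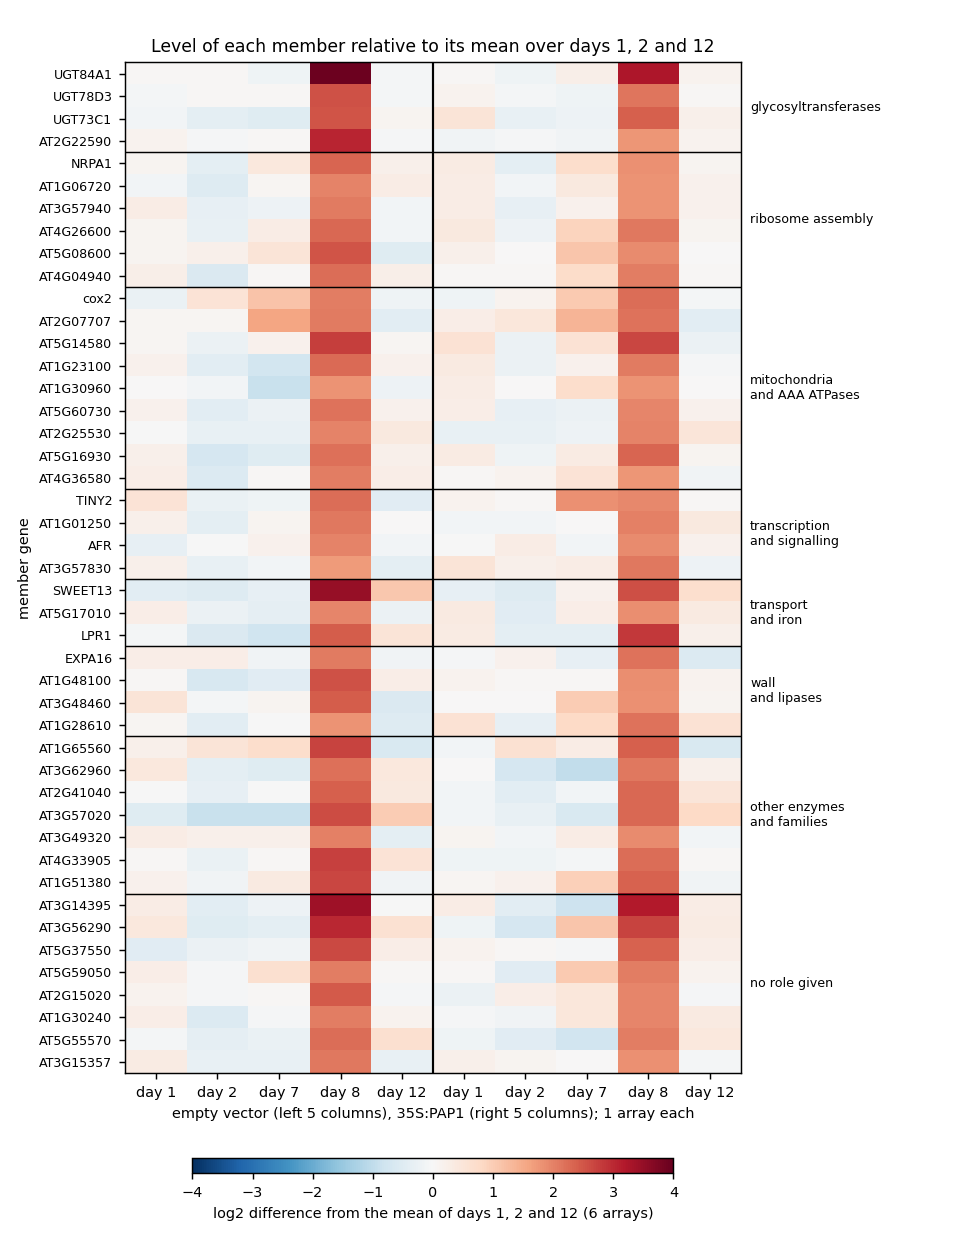
Heat map of the 45 genes (rows, grouped by known role) on the 10 arrays (columns, empty vector left and 35S:PAP1 right, days 1, 2, 7, 8 and 12). Colour gives the log2 difference from the gene's own mean over the 6 arrays of days 1, 2 and 12. The day 8 column is the reddest in each line, as the choice of genes requires, while the day 7 column differs between genes and lines.

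The 4 UDP-glycosyltransferase genes included the gene with the widest margin. UGT84A1 (AT4G15480) encodes an enzyme that makes glucose esters of hydroxycinnamic acids such as sinapate. It read 3.9, 3.9, 3.7, 7.8 and 3.8 in the empty vector and 3.9, 3.7, 4.1, 7.1 and 4.0 in 35S:PAP1. It was near the dim limit on 8 arrays and was at least 14.9-fold above every empty vector value of days 1, 2 and 12 on the empty vector day 8 array, and 8.57-fold above the highest value of those days in 35S:PAP1. UGT78D3 (AT5G17030) encodes a flavonol 3-O-arabinosyltransferase and read 3.2, 3.3, 3.3, 5.8 and 3.2 in the empty vector and 3.4, 3.2, 3.1, 5.4 and 3.3 in 35S:PAP1. Its only values above the dim limit were those of day 8. UGT73C1 (AT2G36750), whose enzyme glucosylates cytokinins in vitro, read 3.5, 3.2, 3.1, 6.1 and 3.7 in the empty vector and 4.1, 3.3, 3.4, 6.0 and 3.8 in 35S:PAP1. AT2G22590, a further UDP-glycosyltransferase gene, read 3.5, 3.3, 3.4, 6.4 and 3.3 in the empty vector and 3.2, 3.3, 3.2, 5.1 and 3.5 in 35S:PAP1. As deposited, the day 8 value of all 4 genes was lower in 35S:PAP1 than in the empty vector, as in 40.9% of all probe sets, by 0.1 in UGT73C1, 0.4 in UGT78D3, 0.7 in UGT84A1 and 1.3 in AT2G22590, each from 1 array per line. The 35S:PAP1 day 8 array has a median lower by 0.1, so with centred arrays UGT73C1 did not differ and the other 3 genes were lower, against 25.4% of all probe sets. Their day 12 values lay within 0.3 of day 1 in each line. The values of both days were 3.2 to 4.1, around or below the dim limit of 3.9, so this closeness does not show a return to the starting level.

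Ribosome assembly was represented by 6 genes. NRPA1 (AT3G57660), the largest subunit of RNA polymerase I, which transcribes the ribosomal RNA precursor, read 6.2, 5.7, 6.5, 8.4 and 6.3 in the empty vector and 6.4, 5.7, 6.8, 7.9 and 6.2 in 35S:PAP1. AT5G08600, a U3 ribonucleoprotein (Utp) family gene of the small subunit processome, read 4.5, 4.6, 4.9, 6.9 and 3.9 in the empty vector and 4.6, 4.4, 5.5, 6.3 and 4.4 in 35S:PAP1. AT4G26600 encodes a NOP2-type ribosomal RNA methyltransferase and read 4.7, 4.3, 4.9, 6.9 and 4.5 in the empty vector and 5.0, 4.4, 5.5, 6.7 and 4.7 in 35S:PAP1. In these 3 genes the day 7 value of each line lay above that line's values of days 1, 2 and 12, and in AT4G04940 and AT1G06720 this was so in 35S:PAP1. Genes outside this group showed it too, among them cox2 and AT5G59050, and its share over all probe sets was not counted. AT4G04940, a WD-40 repeat gene similar to yeast UTP21, read 8.1 and 7.9 on day 8 in the empty vector and 35S:PAP1, with 6 values between 5.3 and 6.1 on days 1, 2 and 12. AT1G06720, similar to the yeast assembly GTPase BMS1, read 8.1 and 7.9 on day 8 and between 5.6 and 6.4 on days 1, 2 and 12. AT3G57940, an N-acetyltransferase gene similar to yeast KRE33, read 8.0 and 7.7 on day 8 and between 5.6 and 6.2 on those days. As deposited, all 6 were lower on day 8 in 35S:PAP1 than in the empty vector (40.9% of all probe sets), and all 6 were higher in it on day 7, by 0.3 to 0.7 (45.7%). The medians of these 35S:PAP1 arrays are shifted the same ways, by -0.1 on day 8 and 0.1 on day 7, and both directions held for all 6 with centred arrays (25.4% and 34.0% of all probe sets). From day 7 to day 8 the 6 genes stood higher by 1.9 to 2.3 in the empty vector and by 0.8 to 1.6 in 35S:PAP1.

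Genes of mitochondrial function and of AAA-type ATPases made up a group of 9. AT5G14580, the mitochondrial polynucleotide phosphorylase that trims and degrades organelle RNA, had the widest margin of these and read 4.6, 4.3, 4.7, 7.3 and 4.6 in the empty vector and 5.1, 4.3, 5.1, 7.2 and 4.3 in 35S:PAP1. AT1G23100, a GroES-like co-chaperonin gene, read 4.4, 3.8, 3.5, 6.5 and 4.4 in the empty vector and 4.6, 4.0, 4.4, 6.3 and 4.2 in 35S:PAP1. AT1G30960, a GTPase gene of the Era type, read 4.9, 4.8, 4.0, 6.7 and 4.7 in the empty vector and 5.2, 4.9, 5.6, 6.7 and 4.9 in 35S:PAP1. The empty vector day 7 value of AT1G30960 was the lowest of its 10. Further nuclear genes included AT5G60730, of the GET3 type of anion-transporting ATPase. It read 7.2 and 7.0 on day 8 and between 4.6 and 5.3 on days 1, 2 and 12. For AT2G25530, an AFG1-like ATPase gene, these were 6.1 and 6.1 and between 3.8 and 4.6. The AAA-type ATPase genes were AT5G16930 (7.2 and 7.3, between 4.3 and 5.3) and AT4G36580 (6.7 and 6.4, between 4.1 and 4.9).

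In this group cox2 and AT2G07707 followed another course. The first is a gene of the mitochondrial genome, and the second is a chromosome 2 locus whose sequence also has a mitochondrial copy. cox2, subunit 2 of cytochrome c oxidase, read 5.1, 5.9, 6.5, 7.4 and 5.2 in the empty vector and 5.2, 5.5, 6.4, 7.6 and 5.3 in 35S:PAP1. AT2G07707, annotated as subunit 8 of the mitochondrial ATP synthase, read 6.2, 6.2, 7.7, 8.2 and 5.7 in the empty vector and 6.4, 6.6, 7.5, 8.3 and 5.7 in 35S:PAP1. Both were above their day 1 and day 2 values on both day 7 arrays, and so stood above their starting level at the end of warm dim growth. From day 7 to day 8 cox2 stood higher by 0.9 and 1.2 in the empty vector and 35S:PAP1, and AT2G07707 by 0.5 and 0.8. The AT2G07707 probe set is the only one of the 45 marked as binding several transcripts, and the nuclear and mitochondrial copies of this sequence may share its signal.

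The transcription and signalling genes were TINY2, AT1G01250, AFR and AT3G57830. TINY2 (AT5G11590), a DREB-type AP2/ERF transcription factor, read 4.9, 4.1, 4.2, 6.6 and 3.9 in the empty vector and 4.5, 4.4, 6.2, 6.3 and 4.4 in 35S:PAP1. In 35S:PAP1 its day 8 value was only 0.1 above that of day 7, whereas the empty vector stood 2.4 higher on day 8 than on day 7. AT1G01250, of the same DREB subfamily, read 4.6, 4.0, 4.5, 6.5 and 4.4 in the empty vector and 4.3, 4.3, 4.4, 6.4 and 4.8 in 35S:PAP1, with no such day 7 value. AFR (AT2G24540), an F-box protein known from phytochrome A far-red light signalling, read 5.6, 5.9, 6.1, 7.9 and 5.8 in the empty vector and 5.9, 6.2, 5.8, 7.8 and 6.1 in 35S:PAP1. AT3G57830, a leucine-rich repeat receptor-like kinase gene, read 4.7, 4.2, 4.4, 6.2 and 4.1 in the empty vector and 5.0, 4.7, 4.8, 6.6 and 4.3 in 35S:PAP1 and was higher in 35S:PAP1 than in the empty vector on all 5 days.

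Transport genes included SWEET13 (AT5G50800), a sugar efflux carrier of the family that exports sucrose towards the phloem. It read 5.0, 4.9, 5.1, 8.9 and 6.5 in the empty vector and 5.1, 4.9, 5.6, 8.0 and 6.1 in 35S:PAP1. It remained above every value of days 1, 2 and 7 on both day 12 arrays. LPR1 (AT1G23010), a multicopper ferroxidase known from the root response to low phosphate, read 5.3, 4.8, 4.6, 7.8 and 5.9 in the empty vector and 5.7, 5.0, 5.0, 8.2 and 5.6 in 35S:PAP1, with the higher day 8 value in 35S:PAP1. AT5G17010, a sugar transporter family gene, read 8.7 and 8.6 on day 8 and between 6.3 and 7.1 on days 1, 2 and 12. On chromosome 5 AT5G17010 and UGT78D3 have 1 gene between them in the TAIR10.1 gene order, and AT5G16930 and AT5G17010 have 8. On chromosome 3 AT3G57830 and AT3G57940 have 12 genes between them, and NRPA1 and AT3G57830 have 24. Whether the chosen genes lie closer together than other genes was not tested.

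**Figure D2:**
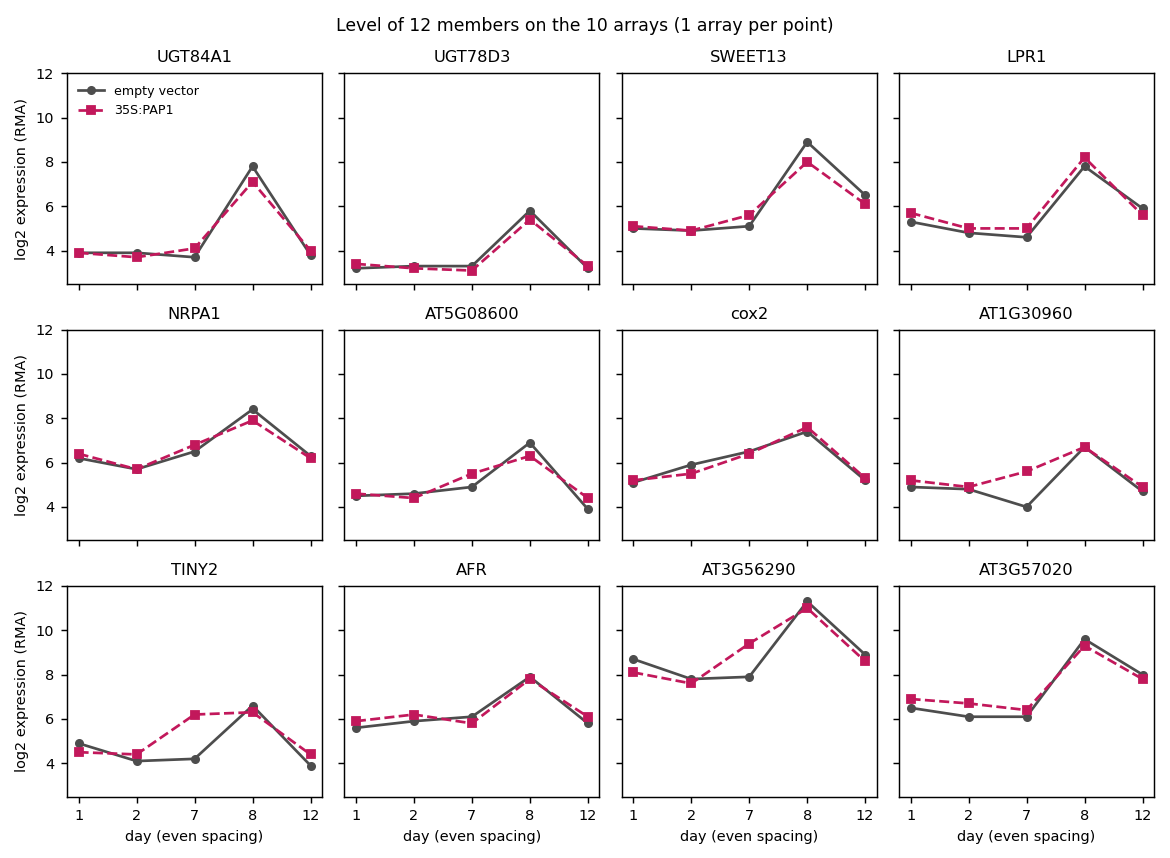
Level of 12 of the 45 genes by day (x axis, days evenly spaced) as log2 expression (y axis), with grey circles for the empty vector and magenta squares for 35S:PAP1, 1 array per point. TINY2, AT3G56290 and AT1G30960 part between the lines on day 7, cox2 is higher on each successive day up to day 8 in both lines, and SWEET13 and AT3G57020 stay above day 1 on day 12.

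Cell wall and lipase genes were EXPA16, AT1G48100, AT3G48460 and AT1G28610. EXPA16 (AT3G55500), an alpha-expansin that loosens walls, read 4.7, 4.7, 4.3, 6.5 and 4.3 in the empty vector and 4.4, 4.6, 4.1, 6.6 and 3.9 in 35S:PAP1. It was the only one of the 45 genes with both day 7 values below all 4 values of days 1 and 2. AT1G48100, a polygalacturonase family gene acting on pectin, read 7.3 and 6.6 on day 8 and between 4.1 and 5.0 on days 1, 2 and 12. AT3G48460, a GDSL-type lipase gene, read 8.5 and 7.9 on day 8 and between 5.5 and 6.6 on those days. AT1G28610, of the same lipase type, read 7.1 and 7.5 on day 8, with the higher value in 35S:PAP1, and between 4.8 and 5.9 on those days.

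Of the other enzymes, AT1G65560, a zinc-binding dehydrogenase gene, read 6.1, 6.4, 6.6, 8.6 and 5.3 in the empty vector and 5.8, 6.5, 6.2, 8.3 and 5.3 in 35S:PAP1. AT3G62960, a glutaredoxin gene of the plant-specific CC type, read 5.3, 4.5, 4.4, 7.1 and 5.3 in the empty vector and 4.9, 4.2, 3.9, 7.0 and 5.1 in 35S:PAP1 and was lower in 35S:PAP1 on all 5 days. AT3G57020, of the strictosidine synthase-like family, read 6.5, 6.1, 6.1, 9.6 and 8.0 in the empty vector and 6.9, 6.7, 6.4, 9.3 and 7.8 in 35S:PAP1. Its day 12 values lay between those of day 8 and of the earlier days in both lines. AT2G41040, a methyltransferase family gene, read 6.5, 6.2, 6.5, 8.9 and 6.9 in the empty vector and 6.4, 6.1, 6.4, 8.8 and 7.0 in 35S:PAP1, with the lines never more than 0.1 apart. AT4G33905, of the Mpv17 and PMP22 membrane protein family, read 6.5 and 6.0 on day 8 and between 3.5 and 4.3 on days 1, 2 and 12. AT1G51380, a DEAD-box RNA helicase gene, read 6.5 and 6.2 on day 8 and between 3.7 and 4.0 on those days. For AT3G49320, a metal-dependent hydrolase gene, these were 7.7 and 7.6 and between 5.3 and 6.0.

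No role is given here for 8 genes, which held some of the widest margins. AT3G14395 read 4.1, 3.4, 3.6, 7.2 and 3.8 in the empty vector and 4.1, 3.4, 3.0, 7.0 and 4.1 in 35S:PAP1, and its 35S:PAP1 day 7 value was the lowest of the 10. AT3G56290 read 8.7, 7.8, 7.9, 11.3 and 8.9 in the empty vector and 8.1, 7.6, 9.4, 11.0 and 8.6 in 35S:PAP1. AT5G37550 read 6.8 and 6.5 on day 8 and between 3.7 and 4.4 on days 1, 2 and 12. AT5G59050 read 6.8 and 6.8 on day 8 and between 4.3 and 5.0 on those days, and AT2G15020 read 6.4 and 5.9 and between 3.7 and 4.2. The remaining AT1G30240, AT5G55570 and AT3G15357 had smaller margins of 1.6 each.

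Day 7 entered neither the choice of genes nor the margin, so it shows where each gene stood at the end of warm dim growth. Day 8 was above day 7 in both lines for all 45 genes, by 0.5 to 4.1 in the empty vector (median 2.4) and by 0.1 to 4.0 in 35S:PAP1 (median 1.8). The step was 1.5 or more in 42 genes in the empty vector, in 31 in 35S:PAP1 and in 31 in each line at once, against 1.19% of all probe sets in each line at once. Day 8 was used in the choice, so this count is no test. Both day 7 values were above all 4 values of days 1 and 2 for 6 genes (cox2, AT2G07707, AT5G59050, AT5G08600, NRPA1 and AT1G51380) and below them for EXPA16 alone, against 6.96% and 7.79% of all probe sets. For 27 genes day 2 was below day 1 in each line, and for cox2, AFR and AT1G65560 it was above, against 31.3% and 24.1% of all probe sets. Days 1 and 2 entered the choice, and nothing is read from the latter counts.

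The lines were compared because the choice of genes asked the same of each and set no value of one against the other. Across the 5 days, limma with day as a block called 18 of 22746 probe sets (0.0791%; 0.0659% higher and 0.0132% lower in 35S:PAP1) and 0 of the 45 genes. The differences of 35S:PAP1 minus empty vector ran from -0.32 to 0.58, with a median of 0.08 against 0.02 over all probe sets, and the lowest adjusted p was 0.385. An unadjusted p under 0.05 was found for 4 of the 45 genes, against 6.98% of all probe sets. These were AT3G57830 (0.36 ± 0.08, SE, adjusted p = 0.385), AT1G28610 (0.58 ± 0.14, adjusted p = 0.460), AT3G62960 (-0.30 ± 0.09, adjusted p = 0.580) and AT5G55570 (-0.22 ± 0.09, adjusted p = 0.695). Over all 45 genes, 4 kept a constant sign on the 5 days, against 3.93% of all probe sets. They are the same 4 genes, which a low p on this difference favours. The fit had 4 residual degrees of freedom, and a miss of the threshold does not show that the lines were alike.

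On day 8 itself, 35 of the 45 genes read higher in the empty vector and 7 in 35S:PAP1, against 40.9% and 41.2% of all probe sets. The difference of 35S:PAP1 minus empty vector had a median of -0.2 on that day and of 0.0, 0.1, 0.4 and 0.1 on days 1, 2, 7 and 12, while the median over all probe sets was 0.0 on each day. It was -0.5 or lower in 9 genes (4.74% of all probe sets), among them AT2G22590 at -1.3, SWEET13 at -0.9, UGT84A1 and AT1G48100 at -0.7 each, and AT3G48460 and AT5G08600 at -0.6. The 35S:PAP1 day 8 array had a median 0.1 lower than its partner. With each array centred on its median, 26 genes were higher in the empty vector and 10 in 35S:PAP1, against 25.4% and 59.1% of all probe sets. Day 8 values entered the choice of genes in each line. Asked of the empty vector alone that choice took 109 probe sets, and of 35S:PAP1 alone 56. The counts rest on 1 array per line, are shaped by the choice and carry no test.

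On day 7 the direction was the other way, with 31 of the 45 genes higher in 35S:PAP1 and 13 lower, against 45.7% and 41.1% of all probe sets. A difference of 0.5 or more was found in 16 genes upwards and in AT3G62960, AT5G55570 and AT3G14395 downwards, against 12.2% and 10.7%. Each of these downward genes had a 35S:PAP1 day 7 value at or below the dim limit of 3.9 (3.9, 3.6 and 3.0). Of the upward genes, AT1G23100 had an empty vector day 7 value of 3.5, also below it. TINY2 differed most, by 2.0 on day 7 against -0.4 to 0.5 on the other 4 days. AT1G30960 differed by 1.6 against 0.0 to 0.3, and AT3G56290 by 1.5 against -0.6 to -0.2. In TINY2 and AT3G56290 the 35S:PAP1 day 7 value was high for the line, and in AT1G30960 the empty vector value was also low for its line. AT3G48460 and AT1G23100 each differed by 0.9, and AT5G16930 and AT1G28610 by 0.8. With each array centred on its median, which lowers the 35S:PAP1 day 7 array by 0.1, 28 genes were higher in 35S:PAP1 and 14 lower, against 34.0% and 54.3% of all probe sets. The day 7 difference lay above those of the other 4 days in 17 genes (20.2% of all probe sets) and below them in 6 (20.3%), and with centred arrays in 11 (12.4%) and 7 (30.7%).

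The day 7 difference between the lines was tested against their mean difference on days 1, 2, 8 and 12. Limma called 0 of 22746 probe sets (0.0%), and its lowest adjusted p over all of them was 0.0729. An unadjusted p under 0.05 was found for 6 of the 45 genes, against 10.4% of all probe sets. They were AT3G56290 (1.85 ± 0.22, SE, adjusted p = 0.270), AT1G30960 (1.45 ± 0.20, adjusted p = 0.279), TINY2 (1.98 ± 0.39, adjusted p = 0.314), AT1G23100 (0.90 ± 0.25, adjusted p = 0.371), AT5G16930 (0.65 ± 0.26, adjusted p = 0.469) and AT3G14395 (-0.62 ± 0.23, adjusted p = 0.440). Both day 7 values of AT3G14395 and the empty vector one of AT1G23100 lay below the dim limit. Over the 45 genes the median was 0.25, against 0.0 over all probe sets, and it was 0.125 with centred arrays. Days 1, 2, 8 and 12 entered the choice of genes and this contrast, so nothing is read from that median. This fit had 3 residual degrees of freedom and 1 array per line on day 7, the day on which the lines correlated least (0.973), so missing the threshold does not show that day 7 was like the other days.

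**Figure D3:**
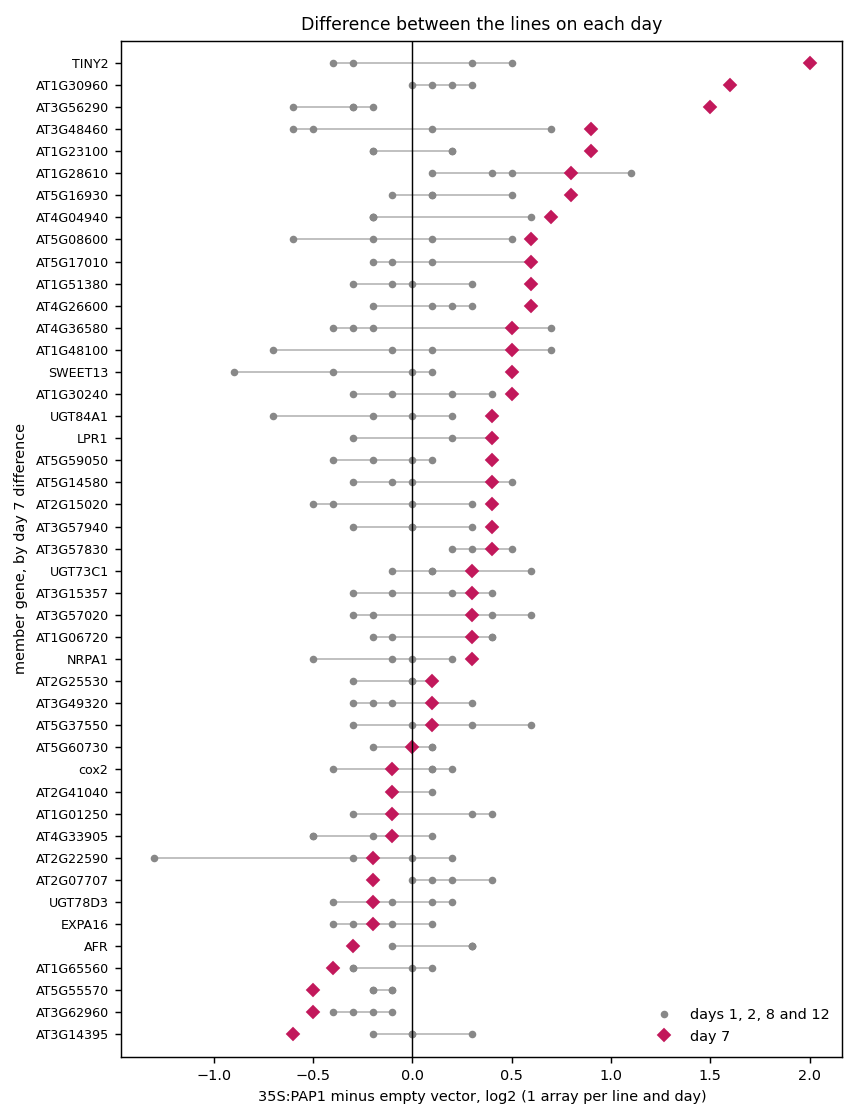
Difference of 35S:PAP1 minus empty vector in log2 units (x axis) for each of the 45 genes (y axis, ordered by the day 7 difference), with magenta diamonds for day 7 and grey circles for days 1, 2, 8 and 12, joined by a line over their range. The day 7 points run from -0.6 for AT3G14395, whose values were below the dim limit on both day 7 arrays, to 2.0 for TINY2. Those of TINY2, AT1G30960 and AT3G56290 lie far right of their own grey ranges.

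Day 12 was set against day 1 to ask whether the genes were back at their starting level after further cool bright growth. Each of these days had been compared with day 8 in the choice of genes, but not with the other. The choice held both days 1.5 or more below day 8 in each line, so genes that stayed near their day 8 level were left out. A fall from day 8 to day 12 was thus required, and only the remaining difference from day 1 is described. Limma called 637 of 22746 probe sets (2.80%), 1.49% higher and 1.31% lower, and 2 of the 45 genes. AT3G57020 was higher on day 12 by 1.2 ± 0.23 (SE, adjusted p = 0.0423), by 1.5 in the empty vector and 0.9 in 35S:PAP1. AT3G57830 was lower, at -0.65 ± 0.13 (adjusted p = 0.0468), with -0.6 and -0.7 in the same order. Each call was lost in every fit that left out any 1 array, with adjusted p up to 0.366 for AT3G57020 and 0.259 for AT3G57830. In those fits the differences themselves ran from 0.975 to 1.425 for AT3G57020 and from -0.75 to -0.55 for AT3G57830, and they stayed at 1.2 and -0.65 where an array of day 2, 7 or 8 was left out. That of AT3G57830 was also lost with arrays centred on their medians (adjusted p = 0.0559) and with a variance trend (adjusted p = 0.082).

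SWEET13 had the largest difference between these days, 1.25 ± 0.30 (adjusted p = 0.0713), with 1.5 in the empty vector and 1.0 in 35S:PAP1. Over the 45 genes the differences ran from -0.65 to 1.25, with a median of -0.05, the same as over all probe sets. Both day 12 values lay above both day 1 values for 6 genes (SWEET13, AT3G57020, AT5G55570, AT5G37550, AT2G25530 and AT2G41040), against 18.7% of all probe sets. Both lay below for 10 genes, among them AT1G65560, AT3G57830, AT2G07707, EXPA16 and TINY2, against 23.8%. The other genes overlapped between the days. An unadjusted p under 0.05 was found for 11 of the 45 genes, against 18.5% of all probe sets.

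**Figure D4:**
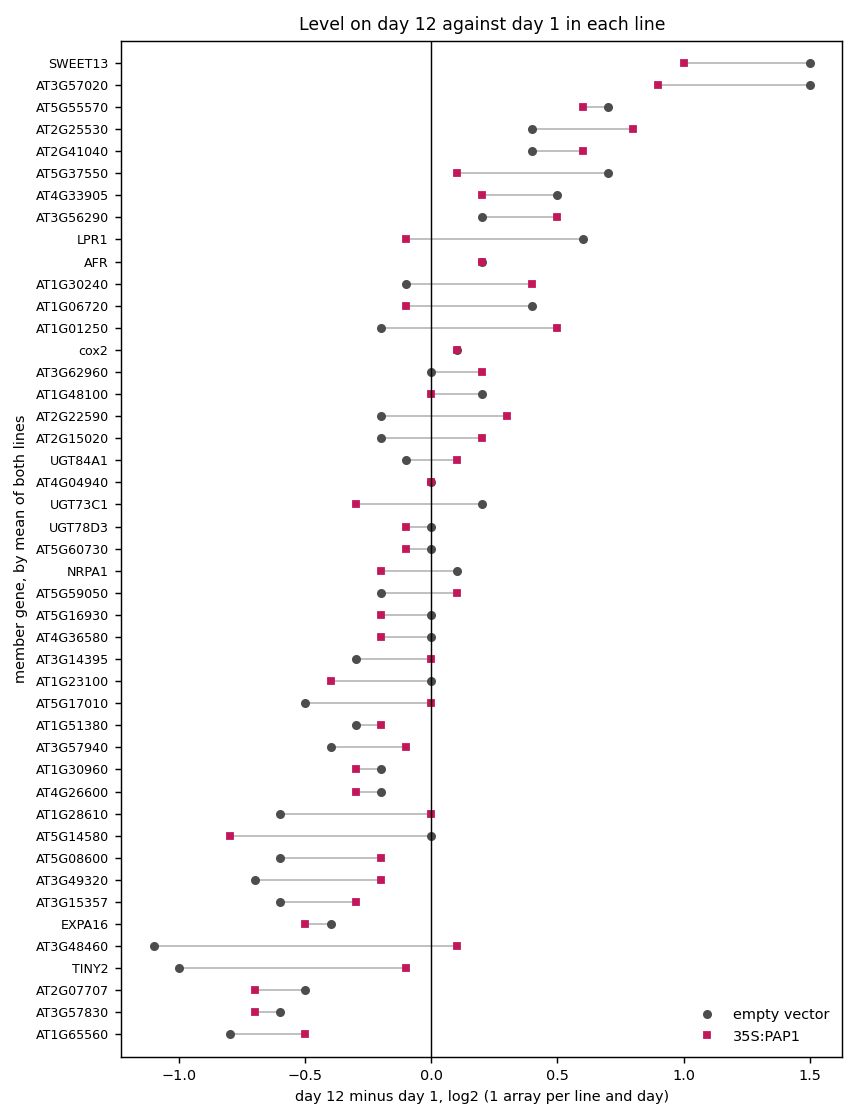
Day 12 minus day 1 in log2 units (x axis) for each of the 45 genes (y axis, ordered by the mean of both lines), with grey circles for the empty vector and magenta squares for 35S:PAP1, 1 array per line and day. SWEET13 and AT3G57020 lie farthest right, at 1.5 in the empty vector and 1.0 and 0.9 in 35S:PAP1, while most other genes lie near 0.

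Around the 45 genes, 15 pathway lists were read on the contrast that chose them, day 8 against the mean of days 1, 2 and 12. Of 161 planned genes 26 had a probe set naming 1 gene, and none of them was among the 45. On this contrast all 4 measured early flavonoid and flavonol genes were called higher (median 2.84 against 0.02 over all probe sets), with AT1G06000 at 3.38 ± 0.27 (SE, adjusted p = 0.000268) and UGT78D2 (AT5G17050), the flavonoid 3-O-glucosyltransferase, at 2.3 ± 0.52 (adjusted p = 0.0146). All 3 measured light signalling genes were called higher (median 1.87), as were 4 of 6 cold response genes (median 1.78). Of these, COR47 was called at 0.83 ± 0.15 (adjusted p = 0.00522), while COR27 was at -0.02 ± 0.27 (adjusted p = 0.978). COR47 read higher on day 7 (12.3 in the empty vector and 12.1 in 35S:PAP1) than on day 8 (11.5 and 11.8). Its lowest values were those of day 1 (9.9 and 9.6). The starch genes APL3 and APL4, large subunits of ADP-glucose pyrophosphorylase, were called higher by 1.17 ± 0.28 and 0.63 ± 0.12 (adjusted p = 0.0175 and 0.00631). APL3 read higher on day 12 (8.0 in the empty vector and 7.9 in 35S:PAP1) than on day 8 (7.9 and 7.5). APL4 read 3.4 to 4.4 over all arrays, around the dim limit. Of 3 heat shock genes 1 was called lower. Of 4 late anthocyanin genes 1 was called higher on day 8, and all 4 were called higher in 35S:PAP1 across the days. In the empty vector each of the 4 had its highest value on day 8, with DFR reading 4.6, 4.4, 3.8, 8.0 and 7.1. Their 35S:PAP1 values lay above every empty vector value on all 5 days, with DFR reading 12.4, 10.7, 12.4, 12.6 and 11.6. The contrast averages the lines, and a rise that differs between them widens its SE. The circadian clock gene GI was called higher, by 0.58 ± 0.13 (adjusted p = 0.012). The only measured genes of photoprotection (AT4G17600, 0.35), carotenoid synthesis (AT3G10230, 0.27) and glucosinolate synthesis (BCAT4, 0.37) were not called (adjusted p = 0.241, 0.236 and 0.374). The background on this contrast was 12.1% called higher and 13.8% lower. Planned genes without a probe set naming only 1 gene were not analysed here.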

How the data were processed

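Per the labels, RNA of pooled leaves was biotin-labelled for Affymetrix arrays. The authors deposited log2 levels for each probe set, to 1 decimal. Per the submitters' processing notes these come from RMA, of unstated version. The 64 array control probe sets among the 22810 were set aside. Rounding left some probe sets with no residual spread, which limma offsets slightly above 0. The probe table names 1 gene for 13513 probe sets, several for 503 and lists none for 8730; 44 of the 45 genes matched TAIR10.1 by Entrez identifier, all but cox2.

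Limma 3.58.1 (R 4.3.3) was run over all 22746 probe sets, with Benjamini-Hochberg adjustment and a threshold of 0.05, and tested on simulated data. Arrays were paired by the labelled sampling day. After subtraction of each line's mean, the 2 arrays of a day correlated at 0.52 (day 1), 0.77 (day 2), 0.49 (day 7), 0.84 (day 8) and 0.75 (day 12). Arrays have no read depth, and their number limits the precision. The genes, the pathway lists, the tests and the alternatives were chosen with earlier results of these data known, and the grouping by role was made with the genes in view. Genes named with values are the 24 with the widest smaller margin, any on a pathway list, those called in a test between lines or between days 12 and 1, and those with a known role, beside 3 on each side of the threshold. Genes named for a difference on 1 day or for an unadjusted p were chosen after their values were seen. The alternatives were array centring, a filter on dim probe sets (mean of at least 5), a variance trend, no day block, and leaving out days or arrays.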

Additional observations from a re-analysis of the deposited data

Results flagged for a closer look

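Over the 45 genes, the 5 daily differences of 35S:PAP1 minus empty vector were checked for a day far from the others, its gap to the nearest day being compared with the whole range. Chance sets about 1 in 20 such series apart if values are normally distributed and not rounded. Values with 1 decimal have ties and need not keep that rate. The share over all probe sets was not counted, so nothing is read from the number found. Of the 6 found, 3 were on day 7: AT1G30960 at 1.6, AT3G56290 at 1.5 and AT5G55570 at -0.5. On day 12 LPR1 stood apart at -0.3 and AT2G41040 at 0.1, and on day 1 AT2G25530 at -0.3. AT5G55570 and these last 3 lie only a few steps of the deposited decimal from the nearest other day. Those nearest differences were -0.2 for AT5G55570, 0.2 for LPR1, -0.1 for AT2G41040 and 0.0 for AT2G25530.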

How the results depend on the processing

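The choice of genes gave 45 at a margin of 1.5, 141 at 1 and 10 at 2, and 109 when asked of the empty vector alone. Asked of 35S:PAP1 alone it gave 56, without day 2 57, and with centred arrays 47, each including all 45. For the line difference across days the count of 18 probe sets became 34 with a variance trend, 28 with the filter on dim probe sets, 8 with no replicate block (day unpaired), 0 when days 2 and 7 of 35S:PAP1 were left out, and 0 to 13 without 1 day, while the count among the 45 genes was 0 in each of these fits. The day 7 difference gave 1 probe set with the dim filter in place of 0. For day 12 against day 1 the count of 637 became 0 with the same arrays left out and 4 to 383 without 1 array, with the lowest count without the empty vector day 12 array. Among the 45 genes the count of 2 became 1 with centring, 1 with the trend, 1 with the dim filter, which tests 28 of them, and 0 without 1 array (0 to 0) or those 2 arrays. Day 8 against days 1, 2 and 12 gave 2006 to 6128 without 1 array, in place of 5888, with the lowest count without the empty vector day 8 array. The cause of these shifts was not tested, apart from fewer arrays or probe sets by construction. TINY2, AT3G56290 and AT1G30960 kept the sign of their day 7 difference in every setting run, with adjusted p of 0.221 to 0.540. Each of these settings kept both day 7 arrays, and the genes were named for that difference, so the kept sign is no test. The values carry no detection call, so differences at or below 3.9 could be hidden.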
